A study of Homo sapiens with 32 samples.

Results

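The MYC, MAX and MXD network is a small set of basic helix-loop-helix leucine zipper transcription factors, and its 10 genes (MYC, MYCN, MYCL, MAX, MXD1, MXD3, MXD4, MXI1, MNT and MLX) were picked by gene symbol out of the 57773 genes of the count tables. HEK293 cells, an established human embryonic kidney line, were transiently transfected with the angiotensin II type 1 receptor (AT1R) in all groups, control included, were moved to medium without serum, and were harvested 6 h or 24 h after stimulation. The groups were control (no agent), angiotensin II (AII) at 1 nmol/l, epidermal growth factor (EGF) at 10 µg/l, and both agents at these doses (AII+EGF). The study asked whether AT1R and the EGF receptor act together on gene expression. Each condition had 4 libraries after 6 h. After 24 h, control, AII and EGF had 4 libraries each, and 3 of AII+EGF were used. A transient transfection yields a mixed culture in which receptor levels differ from cell to cell, and in such bulk RNA a change in the number of cells that express a gene cannot be told apart from a change per cell.

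MYC, MYCN and MYCL bind DNA as dimers with MAX and activate genes of ribosome production, metabolism and the cell cycle. MXD1, MXD3, MXD4, MXI1 and MNT also dimerise with MAX, compete for the same sites and recruit corepressors, so that MAX serves both arms. MLX is a MAX-like partner for some of the MXD proteins, for MNT and for the glucose-sensing Mondo factors. MYC is a classical early target of growth factors and its mRNA is short lived.

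The dimers of this network recognise the E-box, whose core is the hexamer CACGTG. RefSeq promoter sequences (GRCh38.p14) were at hand for 9 of the 10 members, in 12 windows, since MXI1 and MAX have several start sites. MYC had no window there. The 250 bases before the start held a CACGTG in 3 of these windows, those of MXD4, MNT and MLX, once each, compared with 6.34% of all 35116 windows of that length. The hexamer is its own reverse complement, so both strands were searched at once. The 3 windows are shown because they held the hexamer, and capitals mark the CACGTG. Whether the hexamer goes with a response to EGF was not tested. They lie at chr4:2262110-2262359 (minus strand, MXD4), chr17:2401061-2401310 (minus strand, MNT) and chr17:42566850-42567099 (plus strand, MLX), and each is written 5′ to 3′ up to the last base before the start.
MXD4: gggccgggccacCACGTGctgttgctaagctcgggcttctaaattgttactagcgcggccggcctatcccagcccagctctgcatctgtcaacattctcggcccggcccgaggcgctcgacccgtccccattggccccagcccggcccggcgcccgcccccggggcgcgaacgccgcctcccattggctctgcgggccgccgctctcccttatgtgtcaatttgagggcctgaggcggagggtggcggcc
MNT: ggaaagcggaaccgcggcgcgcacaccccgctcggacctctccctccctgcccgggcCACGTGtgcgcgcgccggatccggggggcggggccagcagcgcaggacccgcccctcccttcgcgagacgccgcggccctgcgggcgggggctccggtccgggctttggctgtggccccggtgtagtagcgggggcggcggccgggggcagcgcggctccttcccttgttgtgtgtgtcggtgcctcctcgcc
MLX: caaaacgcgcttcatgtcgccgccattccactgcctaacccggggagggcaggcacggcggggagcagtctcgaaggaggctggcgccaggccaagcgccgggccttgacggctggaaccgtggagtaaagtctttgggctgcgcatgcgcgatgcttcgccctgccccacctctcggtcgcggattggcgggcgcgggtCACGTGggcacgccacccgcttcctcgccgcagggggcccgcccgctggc
The hexamer began 238 bases before the start in MXD4, 193 in MNT and 50 in MLX. A match of letters is a description of the window. Occupancy was not measured here.

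Total counts per library were 3881841 to 8540815 after 6 h and 6646227 to 33070903 after 24 h. The 24 h libraries were less even, with 20.8% to 63.4% of counts on protein-coding genes against 81.4% to 84.7% after 6 h, and the biological coefficient of variation was 29.1% there and 10.6% after 6 h. The transfected receptor gene AGTR1 was present in every library (FPM, the study's unit, is here the CPM of edgeR after TMM normalisation). After 6 h it had 950.1 to 1191 FPM in control and 1023 to 1236 with EGF, below the 1318 to 1515 with AII and 1414 to 1568 with AII+EGF, and its part in the AII comparisons was not tested. After 24 h it had 369 to 685 FPM over all groups. Of 6 HEK293 markers, NEFM, NEFL and VIM were abundant in every library. LHX1 (4.72 to 10.38 FPM after 6 h), SALL4 (4.76 to 9.11 FPM after 6 h) and KRT18 were low. After 6 h these low markers lay below the range of the smooth muscle gene MYH11 given below. NEFM rose with EGF at both time points (log2 fold change 0.68 ± 0.07 (SE) after 6 h and 1.01 ± 0.11 after 24 h, adjusted p = 1.9e-07 and 3.6e-05, edgeR), and KRT18 rose after 6 h (0.60 ± 0.17, adjusted p = 0.017) at 2.10 to 8.40 FPM. Of 7 markers of other cell types in the tables, CD3E and INS had 0 counts in all libraries, ALB, APOA1 and PTPRC had at most 9 and GFAP at most 23 counts, whereas the smooth muscle gene MYH11 (10.4 to 21.3 FPM after 6 h) fell with EGF by 0.33 ± 0.11 on the log2 scale (adjusted p = 0.049, edgeR). Its part in the results below was not tested. The labels do not say that the libraries of a condition were separate cultures, so that p-values measure the spread between these libraries, which may be technical.

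Per length of transcript, MYC was the most abundant member at both time points, with a median of 133 FPM per kb (range 113 to 155 over 16 libraries) after 6 h and 107 (83.0 to 143 over 15) after 24 h. MXD4 was next after 6 h with 35.6 (26.0 to 46.3), followed by MAX with 20.7 (17.6 to 25.4) and MXI1 with 16.6 (12.8 to 19.7), and the ranges of MAX and MXI1 overlapped. MXD3 (11.9), MLX (8.89) and MNT (7.22) followed with overlapping ranges, and MXD3 also overlapped MXI1. MXD1 (4.13) and MYCL (3.74) were the lowest members that passed the filter on low counts, and their ranges overlapped as well. After 24 h the medians of MAX (15.8), MXI1 (13.6) and MXD4 (12.7) were close together with overlapping ranges, and those of MXD3 (7.84), MNT (6.27), MLX (6.00), MXD1 (2.78) and MYCL (2.34) followed. The 6 h and 24 h tables were normalised separately, so that the levels stand side by side and were not tested against each other. In the build of the counts (GRCh37) MYC spans 128747680 to 128755197 on chromosome 8 (plus strand), MXD4 2249159 to 2263836 on chromosome 4 (minus), MNT 2287367 to 2304398 on chromosome 17 (minus) and MLX 40719090 to 40725257 on chromosome 17 (plus).

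**Figure D1:**
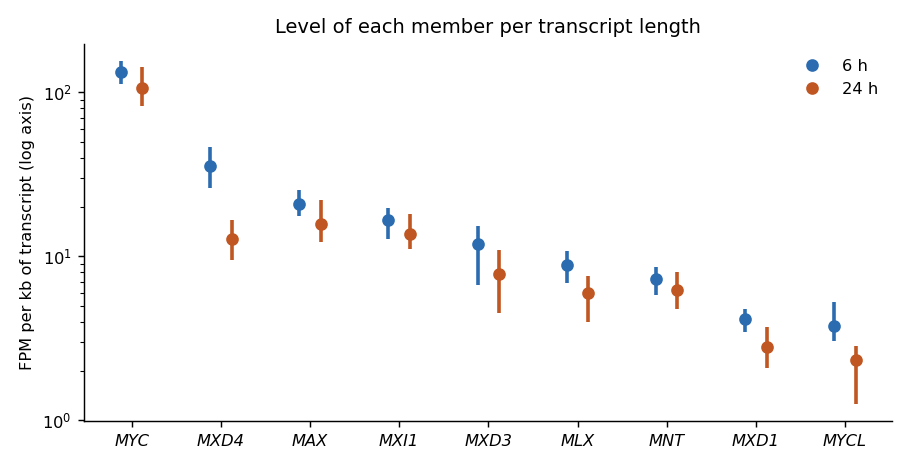
Level of each member in FPM per kb of transcript on a log axis, after 6 h (blue) and 24 h (orange). Points are medians and lines span the lowest to the highest library (16 after 6 h, 15 after 24 h). MYC lies above all others, and MXD4 is second after 6 h with 35.6 and level with MAX and MXI1 after 24 h with 12.7; MYCN is left out because most libraries had 0 counts.

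MYC mRNA stood at about the same high level in all 4 conditions after 6 h. The control libraries had 479, 494, 499 and 536 FPM, and the AII libraries 457, 475, 579 and 498 FPM. The EGF libraries had 420, 444, 507 and 519 FPM, and the AII+EGF libraries 499, 484, 522 and 491 FPM. All 4 groups overlapped. The EGF effect averaged over the cells with and without AII (8 libraries with EGF against 8 without) was a log2 fold change of -0.05 ± 0.06 (SE; 95% interval -0.16 to 0.07, adjusted p = 0.65, edgeR). The interval therefore reached from 0.894-fold to 1.05-fold. EGF against control gave -0.09 ± 0.08 (adjusted p = 0.59, edgeR) and AII against control 0.00 ± 0.08 (95% interval -0.16 to 0.16). The library numbers of each time point run through the 4 conditions in 2 successive rounds, here called series, both of which hold every condition. The labels themselves name no series or batch. The ratio of MYC with EGF to without EGF was 0.970 in the first and 0.966 in the second series, although without EGF the level was higher in the second (498 to 579 FPM) than in the first (457 to 494 FPM).

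After 24 h, MYC was higher in every library with EGF than in every library without it. The control libraries had 336, 327, 358 and 348 FPM, and the AII libraries 309, 317, 398 and 336 FPM. The EGF libraries had 533, 468, 419 and 450 FPM, and the AII+EGF libraries 434, 451 and 451 FPM. The 8 libraries without EGF (309 to 398 FPM) and the 7 with EGF (419 to 533 FPM) did not overlap, which held for 0.532% of the 22174 genes tested. The averaged EGF effect was 1.34-fold (95% interval 1.19 to 1.51; log2 0.42 ± 0.08 (SE), adjusted p = 0.023, edgeR). MYC was the only member of 9 past an FDR of 0.05 in that comparison, which 0.465% of all genes tested passed. It stayed below the fold change of 1.5 that the study's call asks for, which 0.248% of all genes passed together with the FDR and FPM limits.

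No difference between the MYC rise with and without AII was detected. EGF against control gave a log2 fold change of 0.45 ± 0.11 (adjusted p = 0.22, edgeR), AII+EGF against control 0.38 ± 0.12 (adjusted p = 0.62) and AII+EGF against AII 0.39 ± 0.12 (adjusted p = 0.73), so that none of these pairs passed the threshold in edgeR over all genes tested. Among protein-coding genes alone, EGF against control had an adjusted p of 0.032 in edgeR. The first and the third of these share no library. The groups of these 3 pairs did not overlap, which was so for 4.43%, 7.18% and 6.95% of all genes in the same order. AII alone gave -0.01 ± 0.11 (95% interval -0.25 to 0.23), and the interaction of AII and EGF was -0.06 ± 0.17 (95% interval -0.41 to 0.29, adjusted p = 1, edgeR). Within the first library series the ratio with EGF to without EGF was 1.48 (3 against 4 libraries) and within the second 1.23 (4 against 4). All count columns of the first series after 24 h are named as filtered, but only AII+EGF replicate 3 of the second. The part of this in the ratios was not tested. The share of counts on U1 small nuclear RNA, which was uneven after 24 h, had a median of 19.8% (8.90% to 57.2%) without EGF. With EGF it was 20.5% (10.3% to 55.6%). The median share on protein-coding genes was 44.8% without and 39.5% with EGF. The part of these shares in the MYC comparison was not tested.

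The averaged MYC call after 24 h rested on all libraries together. Leaving out 1 library kept the log2 fold change at 0.38 to 0.46 in all 15 cases, but the adjusted p rose above 0.05 without EGF replicate 1 (0.054), AII replicate 1 (0.061), AII replicate 2 (0.061), AII replicate 4 (0.054), AII+EGF replicate 3 (0.066) or AII+EGF replicate 4 (0.085), all in edgeR. DESeq2 gave a smaller adjusted p for the averaged effect (7.5e-06) and also called EGF against control (adjusted p = 0.0038).

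The averaged EGF effect on MYC differed between the time points, in a test added after the data had been seen. The library sets of the time points also differed in make-up, with a median of 82.9% of counts on protein-coding genes after 6 h. After 24 h this median was 41.6%, and its part in the difference was not tested. In a joint edgeR fit of all libraries, the averaged effect was larger after 24 h than after 6 h by 0.45 ± 0.10 on the log2 scale (95% interval 0.25 to 0.65, adjusted p = 0.016), a difference that 0.939% of the 21932 genes tested passed. Leaving out any 1 of the 31 libraries kept this below 0.05 (adjusted p 0.0044 to 0.037, edgeR), whereas without the filter on low counts it was 0.42 with an adjusted p of 0.07. For the single stimuli the difference was 0.53 ± 0.14 with EGF (adjusted p = 0.13) and 0.37 ± 0.14 with AII+EGF (adjusted p = 0.49). The difference with EGF passed with the series of libraries blocked (adjusted p = 0.028, edgeR), among protein-coding genes alone (0.025, edgeR) and with DESeq2 (0.0093). No other member passed this test in edgeR.

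**Figure D2:**
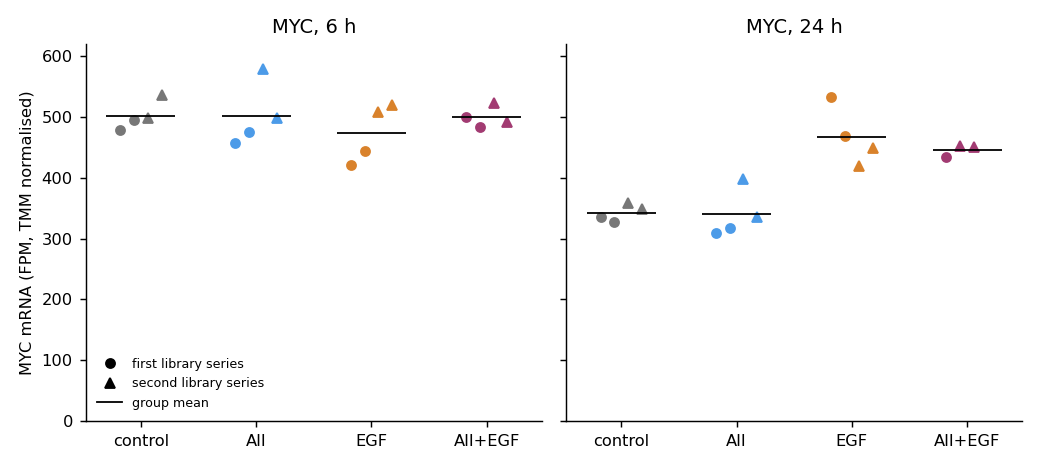
MYC mRNA in FPM (linear axis from 0) by condition after 6 h (left) and 24 h (right), 1 point per library, with circles for the first and triangles for the second library series and a line at the group mean. After 6 h the conditions overlap between 420 and 579 FPM; after 24 h the EGF and AII+EGF libraries (419 to 533) sit above all control and AII libraries (309 to 398).

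MYCN and MYCL, the paralogues with more restricted tissue patterns, added little. MYCN had 0 to 2 counts per library after 6 h and 0 to 11 after 24 h, at or under the floor of 3 counts in 27 of 31 libraries, did not pass the filter and was not tested. MYCL had means of 13.9 (control), 12.2 (AII), 13.1 (EGF) and 15.5 FPM (AII+EGF) after 6 h. The averaged EGF effect on MYCL was 0.15 ± 0.11 after 6 h (adjusted p = 0.40, edgeR) and 0.11 ± 0.17 after 24 h (adjusted p = 0.90). AII+EGF against AII gave 0.36 ± 0.15 after 6 h (adjusted p = 0.18, edgeR) without overlap of the groups.

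MAX, the common partner, had 35.4, 44.5, 39.1 and 41.3 FPM in control after 6 h, and 37.5, 36.3, 39.2 and 44.6 FPM with AII. With EGF it had 41.7, 45.1, 48.1 and 50.2 FPM, and with AII+EGF 40.0, 40.3, 51.0 and 44.5 FPM. The libraries with and without EGF overlapped. The averaged effect was 0.19 ± 0.07 (95% interval 0.04 to 0.33) with an adjusted p of 0.084 in edgeR, past the threshold only without AII replicate 4 (0.22, adjusted p = 0.040). After 24 h it was -0.06 ± 0.13 (adjusted p = 0.93, edgeR), and its sign turned without EGF replicate 2 or AII replicate 3.

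MXD4 was the member with the clearest difference after 6 h, and it was lower with EGF. The control libraries had 158, 149, 139 and 162 FPM, and the EGF libraries 101, 113, 123 and 131 FPM. With AII the values were 138, 133, 179 and 140 FPM, and with AII+EGF 123, 126, 138 and 155 FPM. Control and EGF did not overlap, whereas the 8 libraries with EGF overlapped the 8 without. EGF against control was 0.770-fold (95% interval 0.668 to 0.888; log2 -0.38 ± 0.10 (SE), adjusted p = 0.023, edgeR). The averaged EGF effect was 0.841-fold (0.760 to 0.930; log2 -0.25 ± 0.07, adjusted p = 0.019) and stayed past the threshold without any 1 of the 16 libraries. AII+EGF against control gave -0.17 ± 0.10 (adjusted p = 0.38, edgeR) and AII+EGF against EGF 0.21 ± 0.10 (adjusted p = 0.68). The call of EGF against control was lost without control replicate 1 (adjusted p = 0.05), control replicate 4 (0.076), EGF replicate 1 (0.097) or EGF replicate 2 (0.06), with log2 fold changes of -0.43 to -0.31 over all 16 cases in edgeR.

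In the first library series MXD4 had a ratio with EGF to without EGF of 0.801 after 6 h, and in the second 0.881. After 24 h the averaged effect on MXD4 was -0.09 ± 0.12 (adjusted p = 0.87, edgeR). The ratio was 1.15 in the first and 0.804 in the second series, in opposite directions. The part of the filtered columns, which make up the first series after 24 h, was not tested.

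MNT, the widely expressed repressor of the network, was lower with EGF alone after 6 h. It had 42.6, 40.4, 36.2 and 36.6 FPM in control and 28.6, 31.2, 33.6 and 30.1 FPM with EGF. With AII it had 33.3, 34.9, 41.5 and 31.0 FPM, and with AII+EGF 38.1, 38.0, 33.7 and 39.4 FPM. Control and EGF did not overlap, and EGF against control was 0.795-fold (95% interval 0.690 to 0.915; log2 -0.33 ± 0.10, adjusted p = 0.047, edgeR). The AII+EGF libraries, too, did not overlap those with EGF, which was so for 5.59% of all genes, yet AII+EGF against EGF gave 0.27 ± 0.10 with an adjusted p of 0.68 and the interaction 0.41 ± 0.14 with an adjusted p of 0.59 (edgeR). The averaged effect on MNT was -0.13 ± 0.07 after 6 h (adjusted p = 0.26, edgeR) and -0.26 ± 0.12 after 24 h (adjusted p = 0.49). The 6 h call lay at the edge of the threshold. With 1 library left out it held for control replicate 3, AII replicate 3 or AII replicate 4, but the adjusted p rose to 0.052 to 0.14 without any 1 of the other 13 libraries and to 0.13 without the filter on low counts, while the log2 fold change stayed between -0.37 and -0.29.

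MXD1, MXD3 and MXI1, the remaining repressors that pair with MAX, had no difference past the threshold. MXD1 had 21.7, 22.8, 23.6 and 22.3 FPM in control after 6 h, 26.4, 25.9, 24.0 and 23.4 FPM with AII, 25.8, 26.1, 21.1 and 23.04 FPM with EGF, and 20.7, 19.3, 21.7 and 19.2 FPM with AII+EGF. AII+EGF against AII gave -0.30 ± 0.10 (adjusted p = 0.084, edgeR) without overlap of these groups, and AII+EGF against control -0.16 ± 0.10 (adjusted p = 0.43), where the groups were apart by a narrow margin. MXD3 had group means of 13.8 (control), 12.1 (AII), 11.1 (EGF) and 12.9 FPM (AII+EGF) after 6 h, and its control and EGF libraries did not overlap at a log2 fold change of -0.31 ± 0.19 (adjusted p = 0.36, edgeR). MXI1 had means of 54.5, 54.0, 60.6 and 60.2 FPM in the same order, with an averaged EGF effect of 0.15 ± 0.08 (adjusted p = 0.23, edgeR). After 24 h the averaged effect was 0.19 ± 0.14 for MXD1, -0.05 ± 0.19 for MXD3 and 0.26 ± 0.10 for MXI1 (adjusted p = 0.72, 0.97 and 0.35, edgeR). MXD1 and MXD3 each overlap another gene on the same strand (SNRNP27 and RAB24), so that the counts near these genes are uncertain. The same holds for MXD4 (the microRNA gene MIR4800) and MXI1 (a processed pseudogene). The strand setting of the counting was not given in the sources used here, and reads of antisense partners cannot be told apart. Such partners overlap MYC (CASC11), MYCN (MYCNOS), MYCL (MYCL-AS1), MAX (FNTB), MXD3 (PRELID1), MLX (PSMC3IP), and MNT and MXI1 (a long noncoding RNA each).

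MLX was somewhat higher with EGF after 6 h. It had 16.7, 22.0, 22.6 and 20.7 FPM in control and 18.1, 18.4, 17.7 and 16.3 FPM with AII. With EGF it had 22.1, 23.2, 24.3 and 25.3 FPM, and with AII+EGF 21.3, 19.98, 20.5 and 23.2 FPM. All AII+EGF libraries lay above all AII libraries, whereas control overlapped both groups with EGF. The averaged effect was 1.18-fold (95% interval 1.05 to 1.32; log2 0.24 ± 0.08 (SE), adjusted p = 0.046, edgeR). AII+EGF against AII gave 0.27 ± 0.11 (adjusted p = 0.18, edgeR) and EGF against control 0.21 ± 0.11 (adjusted p = 0.29). With 1 library left out the averaged call held for control replicate 2, control replicate 3, EGF replicate 1 or AII+EGF replicate 2. Without any 1 of the other 12 libraries the adjusted p was 0.055 to 0.088, with DESeq2 it was 0.054 and without the filter on low counts 0.1, while the log2 fold change stayed between 0.20 and 0.26.

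After 24 h, MLX had 11.9, 11.998, 12.2 and 11.3 FPM in control and 14.7, 14.2, 17.96 and 17.2 FPM with EGF. With AII it had 10.5, 9.37, 16.6 and 12.7 FPM, and with AII+EGF 15.8, 17.4 and 15.8 FPM. Both groups with EGF lay above control, but AII replicate 3 (16.6 FPM) lay within their range. That library had the lowest share of counts on protein-coding genes (20.8%) and the highest on U1 small nuclear RNA (57.2%) after 24 h. The part of these shares was not tested. The averaged effect was 1.34-fold, like that of MYC, with a wider interval (1.12 to 1.60; log2 0.42 ± 0.13, adjusted p = 0.18, edgeR), and it passed the threshold only without AII replicate 3 (0.52, adjusted p = 0.044). The ratio with EGF to without EGF was 1.36 in the first and 1.30 in the second library series.

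**Figure D3:**
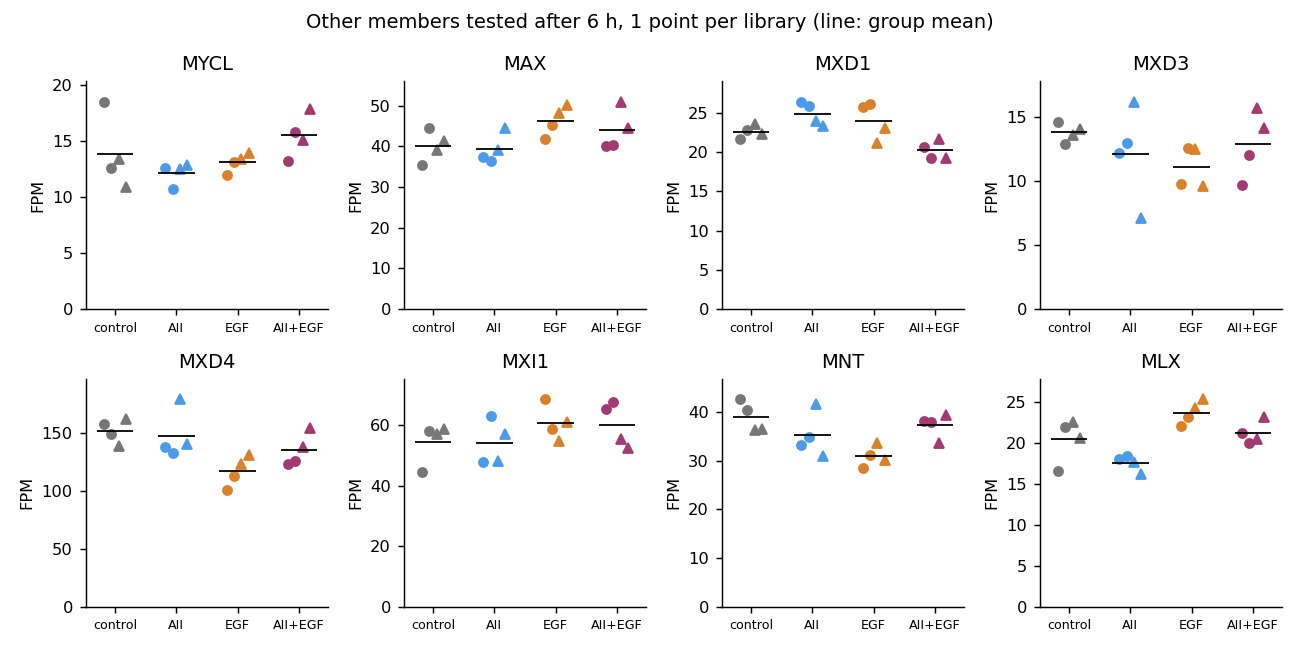
FPM after 6 h of the 8 tested members other than MYC, by condition, 1 point per library (circles first, triangles second library series) with a line at the group mean and each axis starting at 0. MXD4 and MNT are lower with EGF than in control without overlap, whereas MLX with EGF (22.1 to 25.3 FPM) overlaps control (16.7 to 22.6 FPM).

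Counted over the network, no member met the study's call (FDR under 0.05, fold change above 1.5 and mean FPM above 5) in any of the comparisons at either time point in edgeR or in DESeq2. The same call took 1.73% of all 18618 genes tested after 6 h for EGF against control, 1.95% for AII+EGF against control and 1.9% for the averaged effect. With the FDR alone, 2 of 9 members (MXD4 and MNT) passed for EGF against control, beside 5.97% of all genes, and 2 of 9 (MXD4 and MLX) for the averaged effect, beside 13.6%. For AII+EGF against control it was 0 of 9 in edgeR and in DESeq2, beside 6.1% of all genes in edgeR. At an unadjusted p under 0.05 it was 0 of 9 members, beside 3528 of 18618 genes (edgeR). The groups of EGF and control did not overlap for 3 of 9 members, as for 12% of all genes. For AII+EGF and control this was so for 1 member, as for 12.1%, and for AII+EGF and AII for 3 (MYCL, MXD1 and MLX), as for 12.8%.

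AII alone moved no member past the threshold. In AII against control 0 of 9 members passed in edgeR and in DESeq2 at either time point, and 0 had an unadjusted p under 0.05. In edgeR 0% of all genes passed there (0 of 18618 after 6 h and 0 of 22174 after 24 h), so that the count says nothing particular about the members. At an unadjusted p under 0.05 it was 845 of 18618 genes after 6 h and 552 of 22174 after 24 h (edgeR). In AII+EGF against EGF 0 of 9 passed at either time point in both tools, with 3 at an unadjusted p under 0.05 after 6 h (MXD1, MXD4 and MNT) and 0 after 24 h. Of all genes 0% passed at either time point in edgeR, and 1352 of 18618 had an unadjusted p under 0.05 after 6 h. The interaction of AII and EGF gave 0 of 9 in both tools, with 2 at an unadjusted p under 0.05 after 6 h (MXD1 and MNT) and 0 after 24 h. Here, too, 0% of all genes passed at either time point in edgeR, with 1491 of 18618 at an unadjusted p under 0.05 after 6 h.

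**Figure D4:**
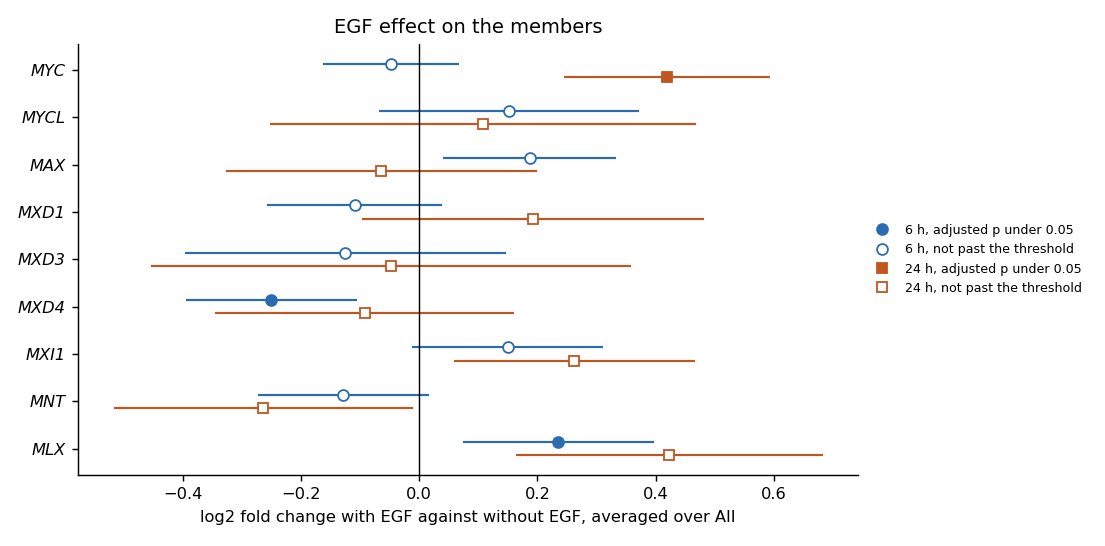
Averaged EGF effect on each tested member as a log2 fold change with its 95% interval, after 6 h (blue circles) and 24 h (orange squares), filled where the adjusted p is under 0.05. MYC lies at -0.05 after 6 h and 0.42 after 24 h, MXD4 at -0.25 and MLX at 0.24 after 6 h.

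Of 45 genes that MYC is known to activate, 24 were higher, 1 was lower and 20 did not pass an FDR of 0.05 for the averaged EGF effect after 6 h (edgeR), while 7.66% of all genes tested were higher. The median log2 fold change over the 45 genes was 0.23 against -0.02 over all genes, and 41 were above 0. For EGF against control 14 were higher, beside 3.6% of all genes, and for AII+EGF against control 13, beside 4%. These 2 comparisons share the control libraries. AII against control had a median of -0.03. The list was chosen with earlier results of these data known, so that its count is a description and no independent evidence of a direction. Its genes had control means of 7.05 to 1456 FPM after 6 h. The shares of all genes were not matched for level, and the part of the level was not tested.

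Only HK2 and LDHA of the list met the study's call for EGF or AII+EGF against control after 6 h. HK2, which phosphorylates glucose, had group means of 81.0 FPM (control), 79.3 (AII), 140 (EGF) and 161 (AII+EGF). It rose by 0.79 ± 0.08 on the log2 scale with EGF and by 0.99 ± 0.08 with AII+EGF (adjusted p = 1.7e-06 and 3.4e-08, edgeR). LDHA, which makes lactate from pyruvate, had 434, 439, 723 and 698 FPM in the same order and rose by 0.74 ± 0.08 and 0.68 ± 0.08 (adjusted p = 4.7e-06 and 1.1e-05, edgeR). ODC1, the first enzyme of polyamine synthesis, also met the call for the averaged effect with 0.59 ± 0.06 (adjusted p = 9.3e-08). The single gene that fell was TERT, the telomerase subunit, by 0.47 ± 0.14 (adjusted p = 0.031), with group means of 4.75 to 7.27 FPM. ODC1 and TERT were named after their values were seen.

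After 24 h, when MYC mRNA was higher with EGF, 2 of the 45 genes were higher for the averaged effect (edgeR), beside 0.37% of all genes that were higher. The median log2 fold change over the 45 genes was 0.11 against -0.01 over all genes, and 38 were above 0. The 2 genes were SHMT2, a mitochondrial enzyme of serine and glycine metabolism (0.55 ± 0.09, adjusted p = 0.0037), and CDC25A, a phosphatase of the cell cycle (0.38 ± 0.08, adjusted p = 0.039), both named after their values were seen. The count of higher genes was 5 with DESeq2 or with the series of libraries blocked, and 4 without the filter on low counts or among protein-coding genes alone. It was 1 without control replicate 1, 3 or 4, EGF replicate 1 or 2, AII replicate 1, 2 or 4, or AII+EGF replicate 1 or 3. Whether the change of the list differed between the time points was not tested.

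Of 12 genes that MYC is known to repress, 10 were tested after 6 h, 2 were higher and 1 lower for the averaged effect (edgeR), beside 7.66% higher and 5.94% lower of all genes. NDRG1, a stress-responsive gene repressed by MYC and MYCN in other cells, had group means of 82.3 FPM (control), 84.5 (AII), 202 (EGF) and 233 (AII+EGF). It rose by 1.29 ± 0.10 on the log2 scale with EGF and by 1.497 ± 0.098 with AII+EGF (adjusted p = 1.2e-08 and 5.9e-10, edgeR), and after 24 h by 0.85 ± 0.13 for the averaged effect (adjusted p = 0.0014). The other 2, named after their values were seen, were the cell cycle inhibitor CDKN1A (0.47 ± 0.07, adjusted p = 8.3e-05) and the stress factor DDIT3, which fell by 0.71 ± 0.21 (adjusted p = 0.027), with group means of 1.98 to 3.97 FPM.

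Of the genes of proteins that work with the network, most did not pass the threshold after 6 h. For the averaged effect after 6 h, 1 of 15 genes of MYC protein turnover was higher at an FDR of 0.05 (USP36, a deubiquitinase), and 1 of 10 corepressor genes of the MXD proteins and MNT was lower (SUDS3, a part of the SIN3 complex), all in edgeR. The shares of these 2 lists lie near those of all genes (7.66% higher and 5.94% lower). Of 14 genes of MYC cofactors, 3 were higher and 0 lower in edgeR, with a median log2 fold change of 0.04. Of 6 other network proteins, among them the MLX partners MLXIP and MLXIPL and the MAX partner MGA, 0 passed in edgeR, with 0 at an unadjusted p under 0.05. Of all genes, 4894 of 18618 had such a p. USP36 (log2 fold change 0.18 ± 0.05, adjusted p = 0.02, edgeR) and SUDS3 (-0.22 ± 0.06, adjusted p = 0.014) were named after their values were seen.

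**Figure D5:**
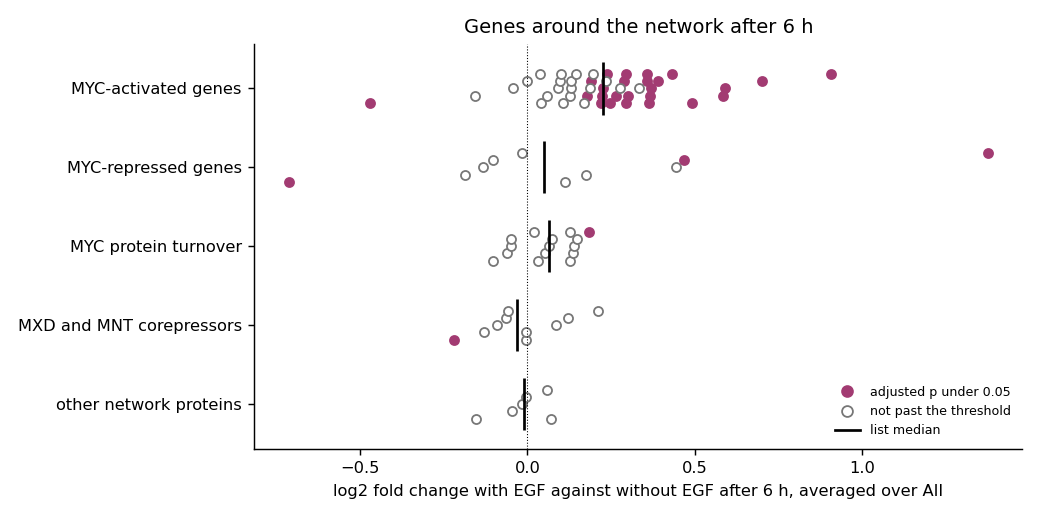
Averaged EGF effect after 6 h as a log2 fold change for each tested gene of 5 lists around the network, filled where the adjusted p is under 0.05, with a bar at the list median. The MYC-activated genes lie mostly to the right of 0 (24 of 45 higher, median 0.23), and NDRG1 is the point at 1.38 among the MYC-repressed genes.

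The genes most alike in their pattern to MXD4, MLX and MAX, the 3 members with the smallest adjusted p for the averaged effect after 6 h, were found by Pearson correlation of log2(FPM + 1) over the 16 libraries among 12992 genes. Those of MXD4 were MCM5 (r = 0.926), DYNC1H1 (0.922), TSC2 (0.921), POLE (0.919) and PTPRS (0.918). Those of MLX were SH2D4A (r = 0.854), UBE2E3 (0.842), CCNE1 (0.828), TGFBR2 (0.811) and ARPC2 (0.799). Those of MAX were CS (r = 0.873), CDV3 (0.861), ARF3 (0.859), DYNLL2 (0.858) and FAM98A (0.847). The libraries share conditions, series and depth, so that these values describe likeness over these libraries.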

How the data were processed

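The authors removed adaptors (Trim Galore, cutadapt 1.8.1), mapped reads to hg19 with TopHat2 2.0.14 and counted them per gene with featureCounts 1.4.6, as the methods and the submitters' processing notes state, while the text deposited with the series names another mapper. What was deposited is a table of counts per gene for each time point, not normalised. The strand setting is not given in the sources used here. Of 32 libraries, 31 had counts. The AII+EGF library 2 after 24 h had no column and was not analysed here, and 8 of 15 columns after 24 h are named as filtered without explanation.

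Groups were taken from the labels. Counts were scaled by TMM and tested with the quasi-likelihood method of edgeR 4.0.16 (R 4.3.3), 1 fit of the 4 conditions per time point after filterByExpr (18618 and 22174 genes), with Benjamini-Hochberg adjustment over all genes, and the difference between time points in a joint fit. The averaged EGF effect is the mean of EGF against control and AII+EGF against AII. The procedure was tested on simulated data. FPM per kb used the length of the reference transcript (GENCODE annotation lifted to GRCh37, the coordinate system of hg19). CACGTG was searched in RefSeq windows of 250 bases.

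The members and lists were chosen with earlier results of these data known. Genes of the other lists were named if they met the study's call for EGF or AII+EGF against control after 6 h, others only as stated. The averaged effect in the joint fit, the counts by FDR alone, the within-series values and the count of MYC-activated genes under the alternatives were added after the data had been seen. The alternatives were DESeq2 1.42.0, its size factors in edgeR, no filter on low counts, the FDR alone, the library series as a block, protein-coding genes only, and each library left out in turn. A count of 3 was treated as the floor. Some results over gene lists are not reported here.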

Additional observations from a re-analysis of the deposited data

Results flagged for a closer look

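In groups of 4 libraries, a value far from the other 3 (by Dixon's ratio) was seen in 4 of 63 groups of tested members, and chance marks about 1 in 20. MXD4 had 179 FPM in AII replicate 3 after 6 h against 133 to 140 in the other AII libraries. MXI1 had 44.4 FPM in control replicate 1 after 6 h against 57.1 to 58.5. MYCL had 10.7 FPM in AII replicate 2 after 6 h against 12.5 to 12.9. MAX had 43.3 FPM in AII replicate 3 after 24 h against 29.5 to 31.2. That library had the lowest share of counts on protein-coding genes after 24 h (20.8%).

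The averaged EGF effect on MYC differed between 24 h and 6 h by 0.45 on the log2 scale (adjusted p = 0.016, edgeR joint fit), the single member whose effect passed a test of the difference between time points.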

How the results depend on the processing

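Of 57 fold changes and differences of members, 37 kept direction and side of the threshold under all alternatives, DESeq2 included. Of the others, 11 turned direction somewhere and the rest crossed the threshold. With the FDR alone the count of members called went from 0 to 2 for EGF against control and for the averaged effect after 6 h, and to 1 for the averaged effect after 24 h. These counts by FDR were 1 for the averaged effect after 6 h with DESeq2, and 1 for it and for EGF against control without the filter on low counts. After 24 h, EGF against control gave 1 member (MYC) with DESeq2 and with protein-coding genes only (adjusted p = 0.032), and its difference between time points 1 with DESeq2, with the series block (adjusted p = 0.028) and with protein-coding genes. The averaged difference between time points gave 0 members without the filter. The MYC-activated genes higher after 24 h were 5 (DESeq2), 4 (no filter), 5 (series block) and 4 (protein-coding genes) against 2 for the averaged effect, 2 (DESeq2) and 1 (series block) against 0 for EGF, and 1 (DESeq2) and 1 (no filter) against 0 for AII+EGF. Leaving out 1 library gave 0 to 2 members for EGF against control after 6 h, 1 to 2 for the averaged effect after 6 h, 0 to 2 after 24 h, and 1 to 3 MYC-activated genes after 24 h.

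Directions turned only in values far from the threshold. MYC with AII+EGF after 6 h was 0.016 without the filter on low counts, and between -0.027 and 0.025 with a library left out. With a library left out, MYCL lay between -0.15 and 0.10 (EGF, 6 h) and -0.015 and 0.33 (EGF, 24 h), MXD3 between -0.20 and 0.026 (AII+EGF, 6 h), -0.080 and 0.29 (EGF, 24 h), -0.13 and 0.40 (AII+EGF, 24 h) and -0.19 and 0.078 (averaged, 24 h), MLX between -0.027 and 0.091 (AII+EGF, 6 h), MAX between -0.089 and 0.18 (EGF, 24 h) and -0.12 and 0.016 (averaged, 24 h), and MXD4 between -0.13 and 0.083 (EGF, 24 h). The cause was not tested. No paired analysis was possible because the titles number libraries without naming replicates shared by the groups, and the replicate numbers used here follow accession order. The 2 series of libraries served as a block instead. The wider spread and fewer protein-coding counts limit the 24 h comparisons.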
